A study of Homo sapiens with 4 samples.

Results

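The integrated stress response is described here through 10 genes: ATF4 and 9 genes known as its targets or as close companions of it in stressed cells. They were taken by symbol: ATF4, ATF3, DDIT3, DDIT4, TRIB3, CHAC1, ASNS, SESN2, NUPR1 and GDF15. Each of the 10 had 1 transcript cluster, the array's probe set for a locus, among 17687 gene symbols on the array. The cells were SUIT2, cultured human tumour cells in RPMI with serum, without any stated genetic change. The control group (n = 2 arrays), called untreated in the sample titles, received phosphate-buffered saline for 24 h. The other group (n = 2 arrays) received fb-PMT at 30 µM for 24 h. fb-PMT is a polyethylene glycol conjugate of tetrac, a deaminated thyroid hormone derivative, made to occupy the thyroid hormone site of integrin αvβ3. The series was meant to test how the drug acts on transcription that serves tumour cell mitochondria.

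The labels give the cell type as glioblastoma multiforme, whereas SUIT-2 is known as a pancreatic duct carcinoma line. The epithelial markers KRT8, KRT18, KRT19 and EPCAM had log2 values of 15.09 to 16.45 on the 4 arrays, and the glial markers GFAP and OLIG2 2.34 to 4.50. The fibroblast marker COL1A1 reached at most 4.57 and the leukocyte marker PTPRC at most 3.90. Negative control probe sets set the background: their 95th percentile was 7.15 to 7.38 on the 4 arrays, so the glial, fibroblast and leukocyte markers all lay below it. Of the integrin that the drug was made for, ITGAV, the alpha subunit, was well above this background (11.73 to 12.28), while ITGB3, the beta subunit, was below it on all arrays (4.45 to 5.14). Whether replicates are separate cultures is not stated, so the tests measure the spread between arrays, which may be technical. Each value averages all cells of a culture, so fewer cells with a transcript and less of it per cell cannot be told apart.

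The integrated stress response begins with kinases that phosphorylate the translation factor eIF2 when amino acids run short, misfolded protein builds up in the endoplasmic reticulum, haem is lacking or mitochondria fail. General translation then slows, while the ATF4 message is translated more, so the ATF4 protein can rise without a change in its mRNA. ATF4 pairs with C/EBP proteins and switches on genes for amino acid supply, redox balance and, when stress lasts, cell death. NUPR1, a small chromatin-associated protein also called p8, was first described in the injured pancreas and is known to respond to the same stresses.

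ATF4 and C/EBP partners are known to bind a composite element whose core, written TGATGNAA, was searched on both strands of the promoter windows. These are the RefSeq sequences (GRCh38.p14) from 250 bases before to 50 bases after each annotated start, and they were at hand for 9 of the 10 genes, all but NUPR1. The core occurred in windows of 3 of these 9 genes, ATF3, CHAC1 and ASNS, and in 3 of the 15 windows they have between them. It occurred in 3.62% of all 35116 windows of this length and in 4.46% of all 27305 genes with a window. The 3 stretches are shown to let the letters of the core be read beside the values of their genes. They run 5′ to 3′ on the strand of the gene, with the core, or its complement in CHAC1, in capitals.

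ATF3, chr1:212565206-212565233, plus strand: aaggtcaggaTGATGGAAggctgtcata
CHAC1, chr15:40953252-40953279, plus strand: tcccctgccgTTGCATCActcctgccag
ASNS, chr7:97872459-97872486, minus strand: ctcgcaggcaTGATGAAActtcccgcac

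Counted back from the start of the transcript, the core began 191 bases upstream in ATF3, 209 in CHAC1 and 68 in ASNS. A match describes the letters and not a bound site, and a window without one says nothing about ATF4 beyond these bases.

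Over all 10 genes, fb-PMT-treated cells showed no common direction. NUPR1 was 2.09-fold higher and GDF15 1.66-fold higher, DDIT4 was 1.6-fold lower and ATF4 itself 1.3-fold lower, and the difference of ASNS was near 0. TRIB3, CHAC1, SESN2 and ATF3 stayed below the negative controls on all 4 arrays. In limma's test over 21448 transcript clusters, 0 of the 10 genes passed an adjusted p of 0.05, against 0.0979% of all transcript clusters. Before adjustment, 2 of the 10 had p below 0.05 and a higher value (5.7% of all transcript clusters), and 1 had such a p and a lower value (5.49% of all). With fb-PMT 5 genes were higher and 5 lower. Their median log2 difference was 0.046, beside -0.017 over all transcript clusters.

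**Figure D1:**
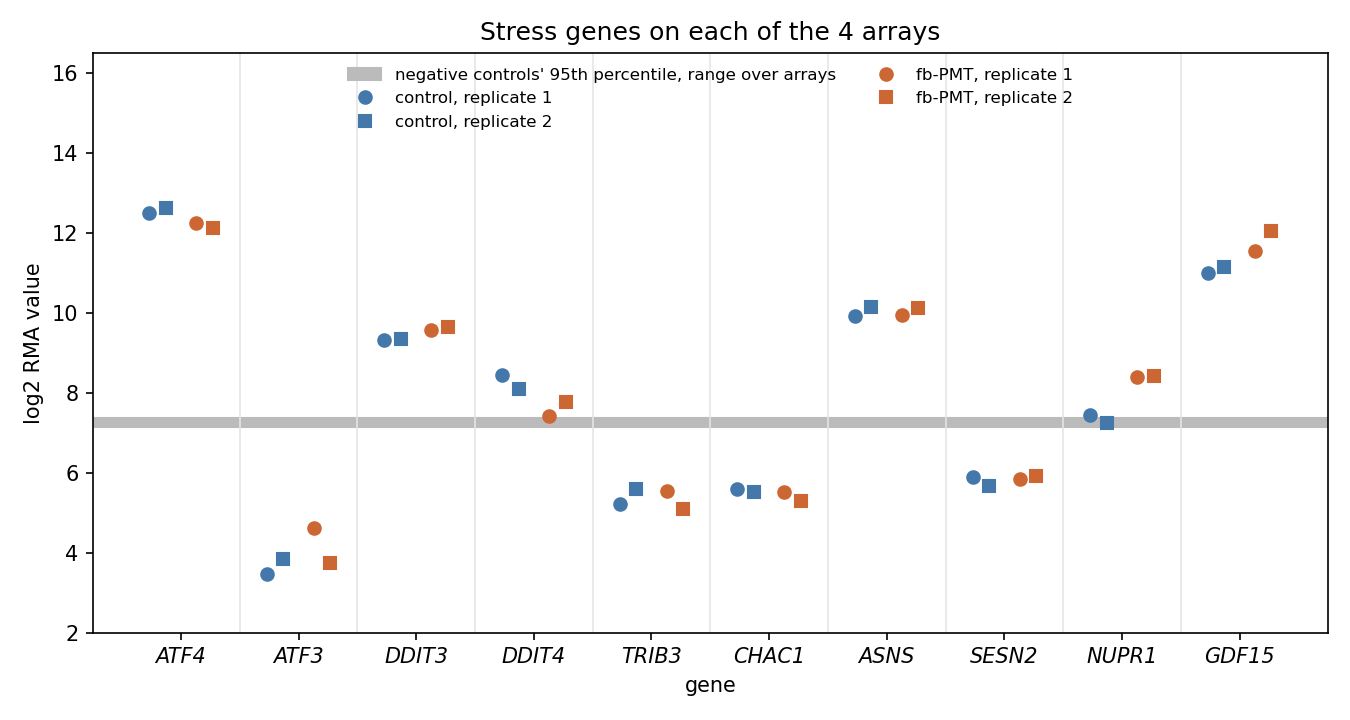
Log2 RMA value (vertical axis) of each of the 10 genes on each array, with control arrays in blue, fb-PMT arrays in orange, circles for replicate 1 and squares for replicate 2. The grey band spans the negative controls' 95th percentile over the arrays, 7.15 to 7.38; NUPR1 starts at its edge, and ATF3, TRIB3, CHAC1 and SESN2 lie under it. Heights of different genes come from different probes and are not comparable.

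Both fb-PMT arrays lay above both control arrays for 3 genes, DDIT3, NUPR1 and GDF15. Such a separation upward held for 20.2% of all transcript clusters. Both lay below for another 3, ATF4, DDIT4 and CHAC1, against 22.3% of all. Of these, CHAC1 was below the negative controls on all arrays, with only 0.01 between its groups. With 10 genes these counts lie near the shares of the whole array. In the other 4 genes the groups overlapped.

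ATF4 (TC2200007406.hg.1), the transcription factor at the head of the pathway, had log2 values of 12.49 and 12.62 in control cells and of 12.24 and 12.11 with fb-PMT. The fb-PMT arrays were thus both lower, and the gap between the groups, 0.25, was wider than the gap between replicates, 0.13 in either group. The log2 difference was -0.38 (SE 0.15, 95% interval -0.76 to 0.0013), which did not pass (adjusted p = 0.446). RefSeq lists pseudogenes of ATF4, as of ASNS and MTHFD2 below, and whether the probes of these genes also bind pseudogene transcripts was not tested.

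DDIT3 (TC1200010968.hg.1) encodes CHOP, a C/EBP-family factor that ATF4 induces and that promotes cell death under lasting stress. Control cells had 9.31 and 9.34, and fb-PMT-treated cells 9.57 and 9.66. Replicates lay within 0.09 of each other and the groups did not overlap, but the log2 difference of 0.29 (SE 0.15, 95% interval -0.07 to 0.65) did not pass (adjusted p = 0.535). The upper end of this interval is a 1.57-fold rise.

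ATF3 (TC0100011533.hg.1), a stress-induced factor of the ATF/CREB family, had 3.47 and 3.84 in control cells and 4.63 and 3.73 with fb-PMT. All 4 values were below the negative controls, and 1 fb-PMT array lay between the controls. The measured log2 difference of 0.53 (SE 0.32, adjusted p = 0.589) rested on fb-PMT replicate 1, since without that array it was 0.08. No fold is given for a gene below background in both groups.

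Among the downstream genes, NUPR1 (TC1600009865.hg.1) stood farthest apart. Its log2 values were 7.44 and 7.23 in control cells and 8.39 and 8.42 with fb-PMT. The groups were separated by 0.95, while the control replicates differed by 0.21 and the treated replicates by 0.02. The log2 difference was 1.07 (SE 0.16, 95% interval 0.68 to 1.45), or a 2.09-fold higher value with an interval of 1.6 to 2.74, and missed the threshold (adjusted p = 0.126). Its control values sat on the edge of the background, 0.06 and 0.01 above the negative controls' percentile of their own array, so the control level is close to the lowest this array can tell from background. Leaving out 1 array at a time gave differences of 0.96 to 1.17, all upward.

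GDF15 (TC1900007384.hg.1), a secreted stress cytokine of the TGF-beta superfamily that curbs appetite through the receptor GFRAL, had 10.99 and 11.14 in control cells and 11.55 and 12.04 with fb-PMT. Both fb-PMT arrays were higher, but the treated replicates differed from each other by 0.49, more than the 0.41 that separated the groups. The log2 difference was 0.73 (SE 0.21, 95% interval 0.21 to 1.25, adjusted p = 0.352), a 1.66-fold higher value. It was 0.49 to 0.98 when 1 array was left out.

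Where the variance was allowed to depend on the mean level (limma with an intensity trend), NUPR1 (adjusted p = 0.0161) and GDF15 (adjusted p = 0.0452) passed as higher, 2 of the 10 genes against 1.37% of all transcript clusters. None of the 10 passed as lower, against 0.513% of all. The 10 genes, and the lists described below, were chosen with earlier results of these data known. Such shares therefore do not test them as sets. NUPR1 also passed when the test was limited to transcript clusters above the negative controls on both arrays of at least 1 group (adjusted p = 0.00766). There 3.46% of those tested passed in either direction, and GDF15 did not (adjusted p = 0.0836). NUPR1 did not pass with the replicate number as a block (adjusted p = 0.273) or with quantile normalization repeated (adjusted p = 0.148). Nor did it pass with arrays centred on their medians (adjusted p = 0.125) or without the lowest 30% of transcript clusters (adjusted p = 0.0709).

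**Figure D2:**
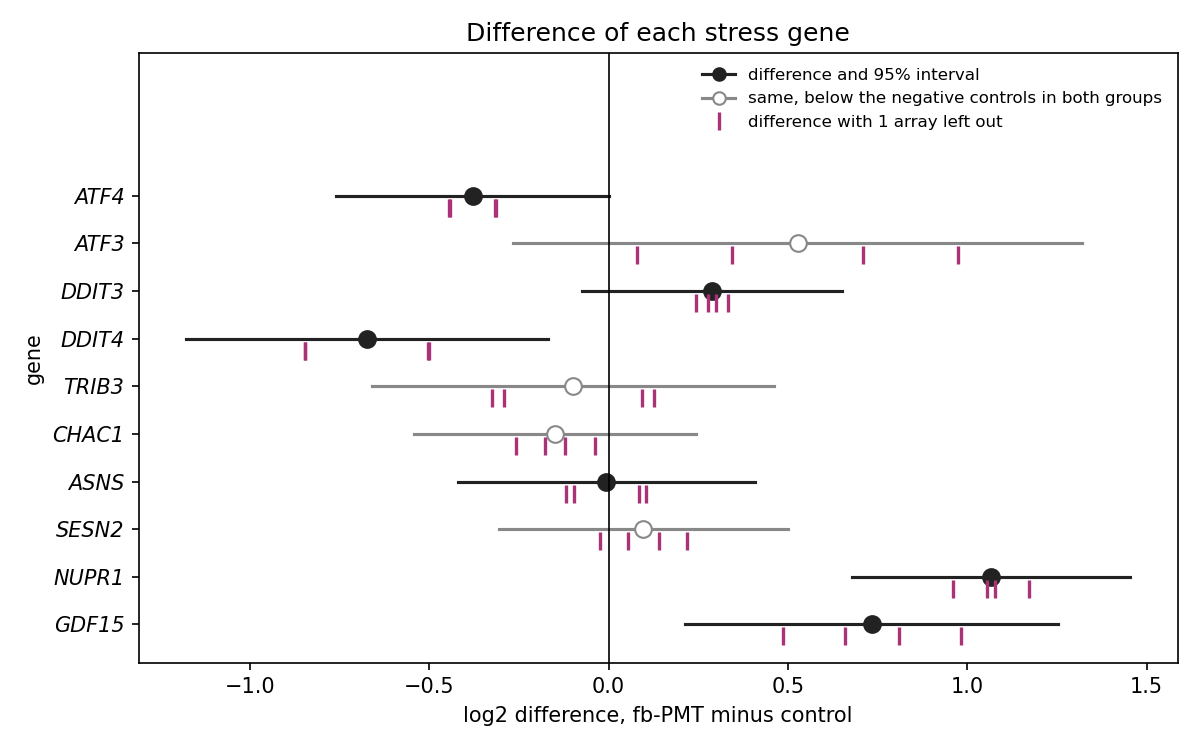
Log2 difference, fb-PMT minus control (horizontal axis), of each of the 10 genes with its 95% interval from limma, as filled points or, for genes below the negative controls in both groups, open grey points. Purple ticks are the differences with 1 array left out; those of NUPR1 stay between 0.96 and 1.17, while those of TRIB3, ASNS and SESN2 fall on both sides of 0.

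DDIT4 (TC1000007990.hg.1) encodes REDD1, which restrains the growth kinase complex mTORC1 through TSC1 and TSC2 and is also induced by hypoxia and glucocorticoids. It had 8.45 and 8.10 in control cells and 7.43 and 7.77 with fb-PMT. Both fb-PMT arrays were lower, with 0.33 between the groups and 0.34 between the replicates of either group. The log2 difference was -0.67 (SE 0.20, 95% interval -1.18 to -0.17), a 1.6-fold lower value that did not pass (adjusted p = 0.368). With 1 array left out it was -0.85 to -0.50. The fb-PMT values of DDIT4 were only 0.28 and 0.49 above the negative controls' percentile of their own array. The treated level is thus near the background, which limits what the fold can show.

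SESN2 (TC0100007552.hg.1) encodes sestrin 2, a leucine sensor that restrains mTORC1 through the GATOR2 complex. Control cells had 5.90 and 5.66, and fb-PMT-treated cells 5.84 and 5.92. The groups overlapped and all values were below the negative controls (log2 difference 0.10, SE 0.16, adjusted p = 0.868).

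ASNS (TC0700011876.hg.1), asparagine synthetase and a textbook ATF4 target that carries the core shown above, had 9.92 and 10.14 in control cells and 9.93 and 10.11 with fb-PMT. The values of the groups interleaved, and the log2 difference was -0.0062 (SE 0.17, adjusted p = 0.993). This gene was well above background, and its 95% interval, 0.747- to 1.33-fold, lies on both sides of no change.

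CHAC1 (TC1500010723.hg.1), which degrades glutathione and carries the core on the opposite strand, had 5.58 and 5.52 in control cells and 5.51 and 5.29 with fb-PMT. TRIB3 (TC2000006444.hg.1), a pseudokinase that binds ATF4 and CHOP and dampens them, had 5.21 and 5.60 in control cells and 5.53 and 5.08 with fb-PMT. Both were 1.6 or more below the negative controls' percentile on the log2 scale on all arrays. Their log2 differences were -0.15 for CHAC1 (adjusted p = 0.774) and -0.10 for TRIB3 (adjusted p = 0.908). CHAC1 and TRIB3 are usual markers of strong ATF4 activity, and any change of theirs under the background is outside what these arrays can show.

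Around the 10 genes, 11 lists of other genes of the pathway were described, with 114 genes of which 108 were measured in 109 transcript clusters. Of these 0 passed limma's test at an adjusted p of 0.05, 55 were higher and 54 lower, and their median log2 difference was 0.00034. Before adjustment, 17 had p below 0.05, 11 of them higher and 6 lower, beside 5.7% and 5.49% of all transcript clusters. With the intensity trend 3 passed as higher (TRIB2, MTHFD2 and MAP1LC3B) and 4 as lower (STC2, SLC7A5, SLC3A2 and AEN), beside 1.37% and 0.513% of all.

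Upstream, the eIF2 kinases and their activators gave small differences. Of 7 measured, 3 were higher and 4 lower, with a median of -0.0073. The kinases EIF2AK3 (PERK, the sensor in the endoplasmic reticulum), EIF2AK1 (HRI, the haem sensor) and EIF2AK2 (PKR, the sensor of double-stranded RNA) had log2 differences of 0.0030, 0.02 and -0.0073. EIF2AK4 (GCN2, the sensor of uncharged tRNA) was at -0.31 (SE 0.15, adjusted p = 0.528), and OMA1, a mitochondrial protease that starts the mitochondrial relay to HRI, at 0.10 (adjusted p = 0.843). DELE1, the carrier of that relay, was at -0.23. Of the subunits of eIF2, its exchange factor eIF2B and the eIF2 phosphatase, 2 were higher and 8 lower, between EIF2B3 at -0.37 (adjusted p = 0.474) and EIF2B2 at 0.12 (adjusted p = 0.835). Without fb-PMT replicate 1, 5 were higher and 5 lower. Phosphorylation of eIF2, on which the pathway turns, is not a transcript measurement.

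Partners of ATF4 and relatives of the 10 genes gave 1 large difference. TRIB2, a pseudokinase paralog of TRIB3, had 7.14 and 6.98 in control cells, below the negative controls, and 8.58 and 8.73 with fb-PMT. Counted from the background it was 2.56-fold higher, an estimate without an interval. The log2 difference as measured was 1.59 (SE 0.16, 95% interval 1.20 to 1.99) and missed the threshold (adjusted p = 0.058). TRIB1, the third paralog, was at 0.29. The other paralogs ranged from -0.46 (NUPR2) to 0.45 (SESN3), both below the negative controls, and CHAC2 was at -0.08 (adjusted p = 0.883). Among 8 measured bZIP partners and relatives, the dimer partners CEBPG and CEBPB were at -0.24 (adjusted p = 0.691) and 0.18, and ATF2 was at 0.20 (adjusted p = 0.69). The largest difference of these 8 was that of JDP2 (0.46, adjusted p = 0.378), which lay below the negative controls in both groups.

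Amino acid genes known to respond to ATF4 fall into transporters and enzymes. Of 8 transporters 7 were lower and 1 higher, with a median log2 difference of -0.39, beside -0.017 over all transcript clusters. In 5 of the 8 both fb-PMT arrays lay below both control arrays, against 22.3% of all, and 0 passed limma's test. These 5 include SLC1A4 (-0.59) and SLC6A9 (-0.43), which lay under the negative controls on all 4 arrays. Over the 6 transporters above them on all 4 arrays the median was -0.22, and 3 of the 6 were so separated. SLC7A5, the light chain of the leucine transporter LAT1, had 15.03 and 15.18 in control cells and 14.60 and 14.60 with fb-PMT (log2 difference -0.51, SE 0.15, adjusted p = 0.364). SLC3A2, the heavy chain of the same transporter, had 14.95 and 14.88 in control cells and 14.58 and 14.56 with fb-PMT (log2 difference -0.35, SE 0.15, adjusted p = 0.459). In both genes the fb-PMT replicates lay closer together than the control replicates, and under both of them. The transporters' median was -0.40 to -0.31 with 1 array left out. SLC7A11, the cystine importer, was at -0.45 (adjusted p = 0.514). The glutamine transporter SLC1A5 (0.03) and the neutral amino acid transporter SLC38A2 (-0.011) had overlapping groups.

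Of the enzymes of amino acid and one-carbon metabolism, 11 were measured in 12 transcript clusters, of which 8 were higher and 4 lower (median 0.14, but 0.012 without fb-PMT replicate 2). MTHFD2, a mitochondrial folate enzyme, had 12.82 and 12.81 in control cells and 14.01 and 13.91 with fb-PMT. Its log2 difference of 1.15 (SE 0.15, adjusted p = 0.0909) was the largest of these enzymes. SHMT2, which works just before it in the same folate pathway, was at -0.10, and PSAT1, of serine synthesis, at -0.11 (adjusted p = 0.841). PHGDH, the first enzyme of serine synthesis, was at 0.36 (adjusted p = 0.446). PCK2 was below the negative controls in both groups, although its fb-PMT values (5.61 and 5.87) lay above its control values (4.97 and 4.29). The 2 transcript clusters of CBS were at 0.11 and 0.16, and their probes may not tell it from its near-identical copy CBSL.

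**Figure D3:**
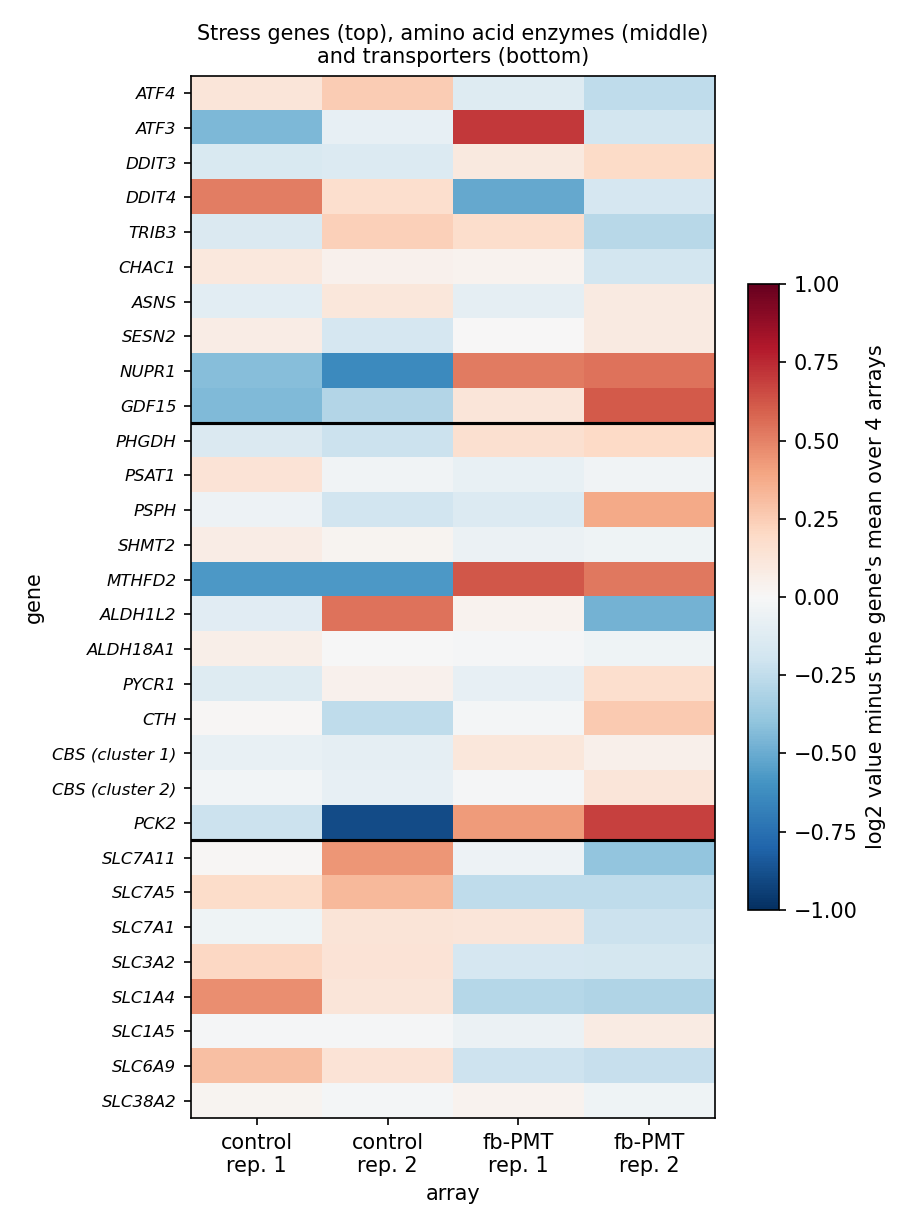
Log2 value of each gene on each array minus its mean over the 4 arrays, from blue (lower) to red (higher), for the 10 stress genes (top), the amino acid and one-carbon enzymes (middle) and the transporters (bottom). NUPR1 and MTHFD2 are blue on both control arrays and red on both fb-PMT arrays, and SLC7A5 and SLC3A2 show the reverse in paler shades; ATF3 and PCK2 are strongly coloured but lie below the negative controls.

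Aminoacyl-tRNA synthetases, which charge tRNAs, were mixed: 6 of 11 measured were higher and 5 lower, with a median of 0.02. CARS1, for cysteine, had 8.51 and 8.66 in control cells and 9.59 and 9.16 with fb-PMT (log2 difference 0.79, SE 0.20, adjusted p = 0.301). WARS1, for tryptophan, which interferons also induce, was at 0.38 (adjusted p = 0.441), and NARS1, for asparagine, at -0.22 (adjusted p = 0.671).

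The other ATF4 and CHOP targets also pointed both ways, with 9 of 16 higher and 7 lower and a median of 0.03. STC2, a secreted glycoprotein, had 9.70 and 9.38 in control cells and 8.81 and 8.71 with fb-PMT (log2 difference -0.78, SE 0.18, adjusted p = 0.266). MAP1LC3B, the autophagosome protein LC3B, had 11.13 and 11.05 in control cells and 11.61 and 11.72 with fb-PMT (log2 difference 0.57, SE 0.15, adjusted p = 0.322). VEGFA, an angiogenic factor that hypoxia induces as it does DDIT4, was at -0.57 (SE 0.16, adjusted p = 0.35). TNFRSF10B, the TRAIL receptor DR5 that CHOP induces, was at 0.17 with overlapping groups.

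In the XBP1 and ATF6 branches of the unfolded protein response, which run beside ATF4, 7 of 9 genes were higher and 2 lower (median 0.19), and 0 passed. In 6 of the 9 both fb-PMT arrays lay above both control arrays, against 20.2% of all transcript clusters, and in 0 below. With 1 array left out, 7 or 8 of the 9 were higher and the median was 0.11 to 0.17. The chaperone HSPA5 (BiP) had 15.55 and 15.49 in control cells and 15.74 and 15.67 with fb-PMT (log2 difference 0.19, SE 0.15). HERPUD1 was at 0.27 (adjusted p = 0.576) and XBP1 at -0.23 (adjusted p = 0.68). Of 11 genes of mTORC1 and its regulators, which DDIT4 and SESN2 act on, 6 were higher and 5 lower. Above background the differences lay between SEH1L at -0.30 (adjusted p = 0.56) and WDR59 at 0.23 (adjusted p = 0.603). The list holds MTOR itself and genes that promote or restrain mTORC1, so these counts give no direction of its activity.

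Because p53 is known to induce GDF15, SESN2 and DDIT4 as well, 10 measured p53 targets were set beside them. Of these 4 were higher and 6 lower, with a median of -0.10 (0.04 without control replicate 2), and 0 passed. MDM2, the ubiquitin ligase of p53, was at 0.47 (SE 0.16, adjusted p = 0.392), AEN, a nuclease, at -0.77 (SE 0.17, adjusted p = 0.255) and CDKN1A, the cell cycle inhibitor p21, at -0.17 (SE 0.20, adjusted p = 0.796). Their part in the values of GDF15 and DDIT4 was not tested.

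**Figure D4:**
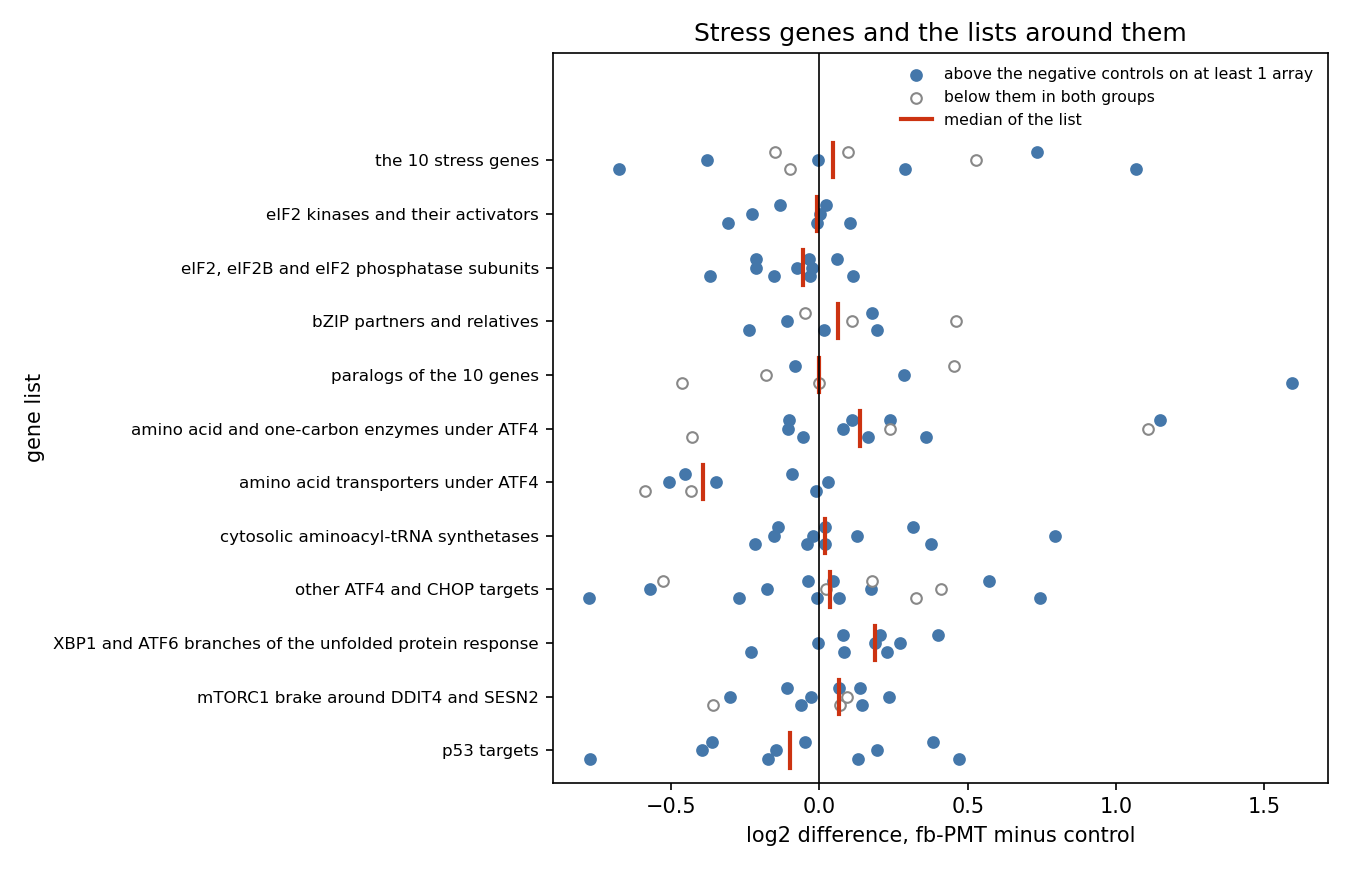
Log2 difference, fb-PMT minus control (horizontal axis), of every measured transcript cluster of the 10 stress genes and of the 11 lists around them (rows), with the median of each list as a red bar and open circles for genes below the negative controls in both groups. The transporters' median lies at -0.39, and TRIB2 (1.59), MTHFD2 (1.15) and NUPR1 (1.07) lie farthest to the right among the filled circles.

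Across the 4 arrays, the profile nearest to that of NUPR1 was searched among 8090 named transcript clusters above the negative controls on both arrays of at least 1 group. Likeness was the Euclidean distance between log2 values centred on each gene's mean. The nearest were FGL1, a secreted fibrinogen-like protein (distance 0.0874), SMIM14, a small membrane protein (0.112), and SLC14A1, a urea transporter (0.13). FGL1 had 10.98 and 10.87 in control cells and 11.96 and 11.94 with fb-PMT, and SLC14A1 11.12 and 11.01 against 12.25 and 12.14. SMIM14 had 7.18 and 6.88 in control cells, below the negative controls, and 8.04 and 7.99 with fb-PMT. With 4 arrays in 2 groups, such nearness mostly says that a gene has a difference of about the same size.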

How the data were processed

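Biotin-labelled total RNA was measured on 4 single-colour whole-transcript arrays, per the labels. The deposited log2 values per probe set come from RMA (background correction, normalization between arrays, summary). Per the submitters' processing notes, RMA was run in Transcriptome Analysis Console, version 4.0.1.36. The genome build is not given in the sources used here. RMA compresses differences of dim probe sets.

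Of 24351 probe sets, 2903 controls were left out. Array medians of the rest were 6.27 to 6.28. The platform annotation named 17709 of 21448 transcript clusters. The model (limma 3.58.1, R 4.3.3) used lmFit and eBayes without a covariate, with Benjamini-Hochberg adjustment over all 21448. Tested on simulated data, the fit found 8.8% of the transcript clusters set to differ 2-fold and 89.7% of those set to differ 4-fold. In each run about 8.3 clusters without a set difference also passed. Missing the threshold in this fit therefore says little about a difference near 2-fold. Each of the 20 runs raised 200 clusters and used a variance that did not depend on the mean level. The share found for a gene at its own level may thus differ. With 2 arrays against 2, an exact two-sided permutation test cannot go below p = 0.333. The small number of arrays limits the precision: the median SE was 0.175.

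The 10 genes and the lists were chosen with earlier results of these data known. From each list the text names the largest rise and fall above the negative controls, the 10 genes, 8 cell markers, ITGAV, ITGB3 and the 3 profiles nearest to NUPR1. All other names were chosen after their values were seen. Alternatives were a replicate block, an intensity trend, filters, renewed normalization and leaving out each array.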

Additional observations from a re-analysis of the deposited data

How the results depend on the processing

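Of the 10 genes, 0 passed limma's test in the fit reported, while 3 had p below 0.05 before adjustment, 2 of them higher. The count was 2 with an intensity trend, 2 with a trend and robust variances, and 1 with only transcript clusters above the negative controls on both arrays of at least 1 group, a filter that can keep a gene through its higher group alone. Of the pathway genes 0 passed, but 7 with an intensity trend (1.88% of all transcript clusters passed there), 7 with robust variances added (1.84%), 2 without the lowest 30% (0.446%), 4 with the filter on negative controls (3.46%; TRIB2, 1 of the 4, was kept through its fb-PMT arrays alone) and 2 at an adjusted p of 0.1 (0.34%). The median log2 difference of the 10 genes was 0.046, 0.141 over the 6 above the negative controls, -0.0062 over the 9 left without the lowest 30%, and 0.051 to 0.099 with 1 array left out. With 1 array left out the log2 difference ranged from -0.324 to 0.127 for TRIB3, from -0.118 to 0.105 for ASNS and from -0.0246 to 0.219 for SESN2; the cause was not tested. The other 7 genes kept their direction in every alternative that measured them. With the replicate number as a block 0 of the 10 genes passed and no call on them changed. Over all transcript clusters, deviations of same-numbered arrays from their group means correlated with r = 0.042. Whether same-numbered arrays were handled together is not stated, and this single correlation cannot decide it.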
